A study of Rattus norvegicus with 6 samples.

Results

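The genes of oxidative phosphorylation in rat hippocampus were examined on 6 two-colour DNA microarrays, in which mild exercise (ME), intense exercise (IE) and sedentary control (CONT) were compared in pairs. A probe was a member when its gene name on the array, without the endings _predicted or _mapped, began with Nduf, Sdha, Sdhb, Sdhc, Sdhd, Uqcr, Cox4, Cox5, Cox6, Cox7, Cox8 or Atp5. This name rule used no measured value and took 81 of 41012 probes, which stand for 71 of 35561 gene names on the array. Of these genes, 65 are subunits, 3 are assembly or accessory factors (Ndufaf1, Cox7a2l and Atp5s), and 3 share a prefix without being subunit genes. The last 3 are Cox4nb, which encodes a subunit of the endoplasmic reticulum membrane complex, Cox6c1, which RefSeq lists as a Cox6c pseudogene, and Cox6b, whose name is a RefSeq synonym of the subunit gene Cox6b1 but whose probe the array describes as a uroplakin Ia-like transcript. By complex, the rule gave 32 genes of complex I, 4 of complex II, 5 of complex III, 16 of complex IV and 14 of complex V.

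All animals were male Wistar rats, 11 weeks old by the labels. CONT rats rested on the treadmill, ME rats ran at 15 m/min, below the lactate threshold, and IE rats ran at 40 m/min, above it, in both cases for 60 min/day, 5 times/week, over 6 weeks of training that included the habituation to running. Slight electric shocks were used to habituate the runners, and by the study's methods this habituation lasted longer for IE than for ME rats. Some IE rats were given more shocks later, and IE rats that refused to run were left out by the study. RNA from 5 rats per group was pooled, so each group is 1 pool, and each pair of pools was compared on 2 arrays of opposite labeling. These 2 arrays measured the same RNA and count as 1 replicate, so no test across rats was possible, and the SD given after each mean is that between the 2 arrays. All ratios are log2 of ME over CONT, IE over CONT or IE over ME, after the second array was turned to the same direction. In whole-tissue RNA, fewer cells of a type and less RNA per cell cannot be told apart.

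Oxidative phosphorylation takes place in the inner mitochondrial membrane, where complexes I (NADH dehydrogenase) and II (succinate dehydrogenase) pass electrons to ubiquinone, complex III hands them to cytochrome c, and complex IV (cytochrome c oxidase) hands them to oxygen. Complexes I, III and IV pump protons, and complex V (ATP synthase) uses their return flow to make ATP. Most subunits, and all the members here, are encoded in the nucleus, and neurons depend on the pathway for the ATP that restores ion gradients. In muscle, endurance training is known to raise these genes together through the coactivator PGC-1alpha and the factors NRF-1, GABP (an ETS factor) and ERR.

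The promoters of the members were searched for short sequence words of known factors. RefSeq promoters of the GRCr8 build (250 bases before to 50 after the start) were found for 62 of the 71 members and for 57 of the 65 subunit genes. Searched on both strands, the word GCGCATGC, a core of the NRF-1 motif, was present in 12.3% of the 57 subunit promoters and in 2.66% of all 27457 promoters. The ETS word CCGGAAG was present in 29.8% and 9.22%, the YY1 word AAGATGGC in 22.8% and 3.44%, the ERR word TCAAGGTCA in 3.51% and 0.412%, and the SP1 word GGGCGG in 42.1% and 34.9%. Subunit promoters had a median of 57% G and C, against 52.3% over all promoters, and the set of all promoters includes genes of every kind. These matches are descriptions of letters and show no binding. Only 2 subunit promoters, those of Atp5i (the e subunit of ATP synthase, RefSeq symbol Atp5me) and Ndufa6 (a subunit of complex I), held the NRF-1, ETS and YY1 words together. They are shown from 200 bases before to 30 after the start, with that of Uqcrc1 (a core protein of complex III), whose probe had the largest dye effect below. Capitals mark these 3 words on either strand, and in Atp5i the NRF-1 word lies on both strands in overlapping positions. The stretches are chr14:1464660-1464889 (plus strand) for Atp5i, chr7:115750288-115750517 (minus strand) for Ndufa6 and chr8:118468023-118468252 (plus strand) for Uqcrc1, each printed 5′ to 3′ on the strand of its gene.
Atp5i: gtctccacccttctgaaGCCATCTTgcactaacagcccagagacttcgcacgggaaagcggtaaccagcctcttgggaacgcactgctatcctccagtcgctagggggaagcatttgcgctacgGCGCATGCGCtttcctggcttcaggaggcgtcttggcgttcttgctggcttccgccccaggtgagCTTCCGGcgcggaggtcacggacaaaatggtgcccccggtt
Ndufa6: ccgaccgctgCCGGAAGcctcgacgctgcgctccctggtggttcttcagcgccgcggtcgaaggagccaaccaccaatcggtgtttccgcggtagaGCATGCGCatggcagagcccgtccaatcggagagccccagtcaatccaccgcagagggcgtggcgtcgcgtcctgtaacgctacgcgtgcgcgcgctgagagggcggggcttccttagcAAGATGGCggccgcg
Uqcrc1: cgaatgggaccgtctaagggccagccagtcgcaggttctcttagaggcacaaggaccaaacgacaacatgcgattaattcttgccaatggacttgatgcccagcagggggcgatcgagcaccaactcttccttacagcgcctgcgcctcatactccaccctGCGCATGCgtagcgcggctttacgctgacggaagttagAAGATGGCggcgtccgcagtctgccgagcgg

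No spot of the members was marked as an outlier or saturated (0 of both). Of the 81 member probes, 77 (95.1%) passed the software's test for well above background for both dyes on every one of the 6 arrays, against 60.3% of all probes. The other 4 were the probe of Cox6b, that of Cox6c1 and 2 of the 3 probes of Cox8h, the heart and muscle form of subunit VIII (RefSeq symbol Cox8b). A gene's value in a pair is the mean over its probes that passed this test for both dyes on the pair, which left 70 genes for ME vs CONT, 70 for IE vs CONT and 69 for IE vs ME. Among the member probes, 70 of 79, 70 of 80 and 68 of 78 lay in the brightest 30% of all such probes.

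No oxidative phosphorylation gene was past the fold and p limits of the study when these were required on both arrays of a pair. With limits of 1.5 or more for Cy5/Cy3 on 1 array, 0.75 or less on its dye swap and an error-model p below 0.01 on both, 0 of 81 member probes were called in ME vs CONT, where 0.122% of all probes were. The counts were also 0 of 81 in IE vs CONT (0.0293% of all probes) and 0 of 81 in IE vs ME (0.0731%). Without the p limit, 0 of 81 were past the ratios in each comparison, against 0.985%, 0.666% and 1.06% of all probes. At these background rates few or no members would be past the limits, so the counts of 0 say little about the members by themselves. The error-model p compares 2 pools on 1 array, and not groups of rats.

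The size of the ratios says more. In ME vs CONT the median over the 70 genes was 0.012 on array 1 and -0.012 on array 2, and that of the gene means was 0.0064, a 1.00-fold ratio. In IE vs CONT the array medians were -0.0073 and -0.015, and the median of the gene means was -0.010 (0.993-fold). In IE vs ME they were -0.049 and 0.014, and the median of the gene means was -0.018 (0.987-fold). Over all probes well above background, the medians were -0.0025, 0.0018 and 0.0028. The array medians thus lay on both sides of 0 in ME vs CONT and in IE vs ME, and below 0 on both arrays in IE vs CONT. The gene mean was above 0 for 42 genes and below 0 for 28 in ME vs CONT, and for 27 and 43 in IE vs CONT. Of all probes well above background, 13941 were above and 14957 below in ME vs CONT, and 14693 and 14053 in IE vs CONT. In IE vs ME the gene mean was above 0 for 16 genes and below for 53. There 13351 of all 25806 probes were above and 12455 below, and only the first array had a member median below 0. Gene means ran from -0.058 to 0.18 in ME vs CONT, from -0.13 to 0.066 in IE vs CONT and from -0.11 to 0.20 in IE vs ME.

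**Figure D1:**
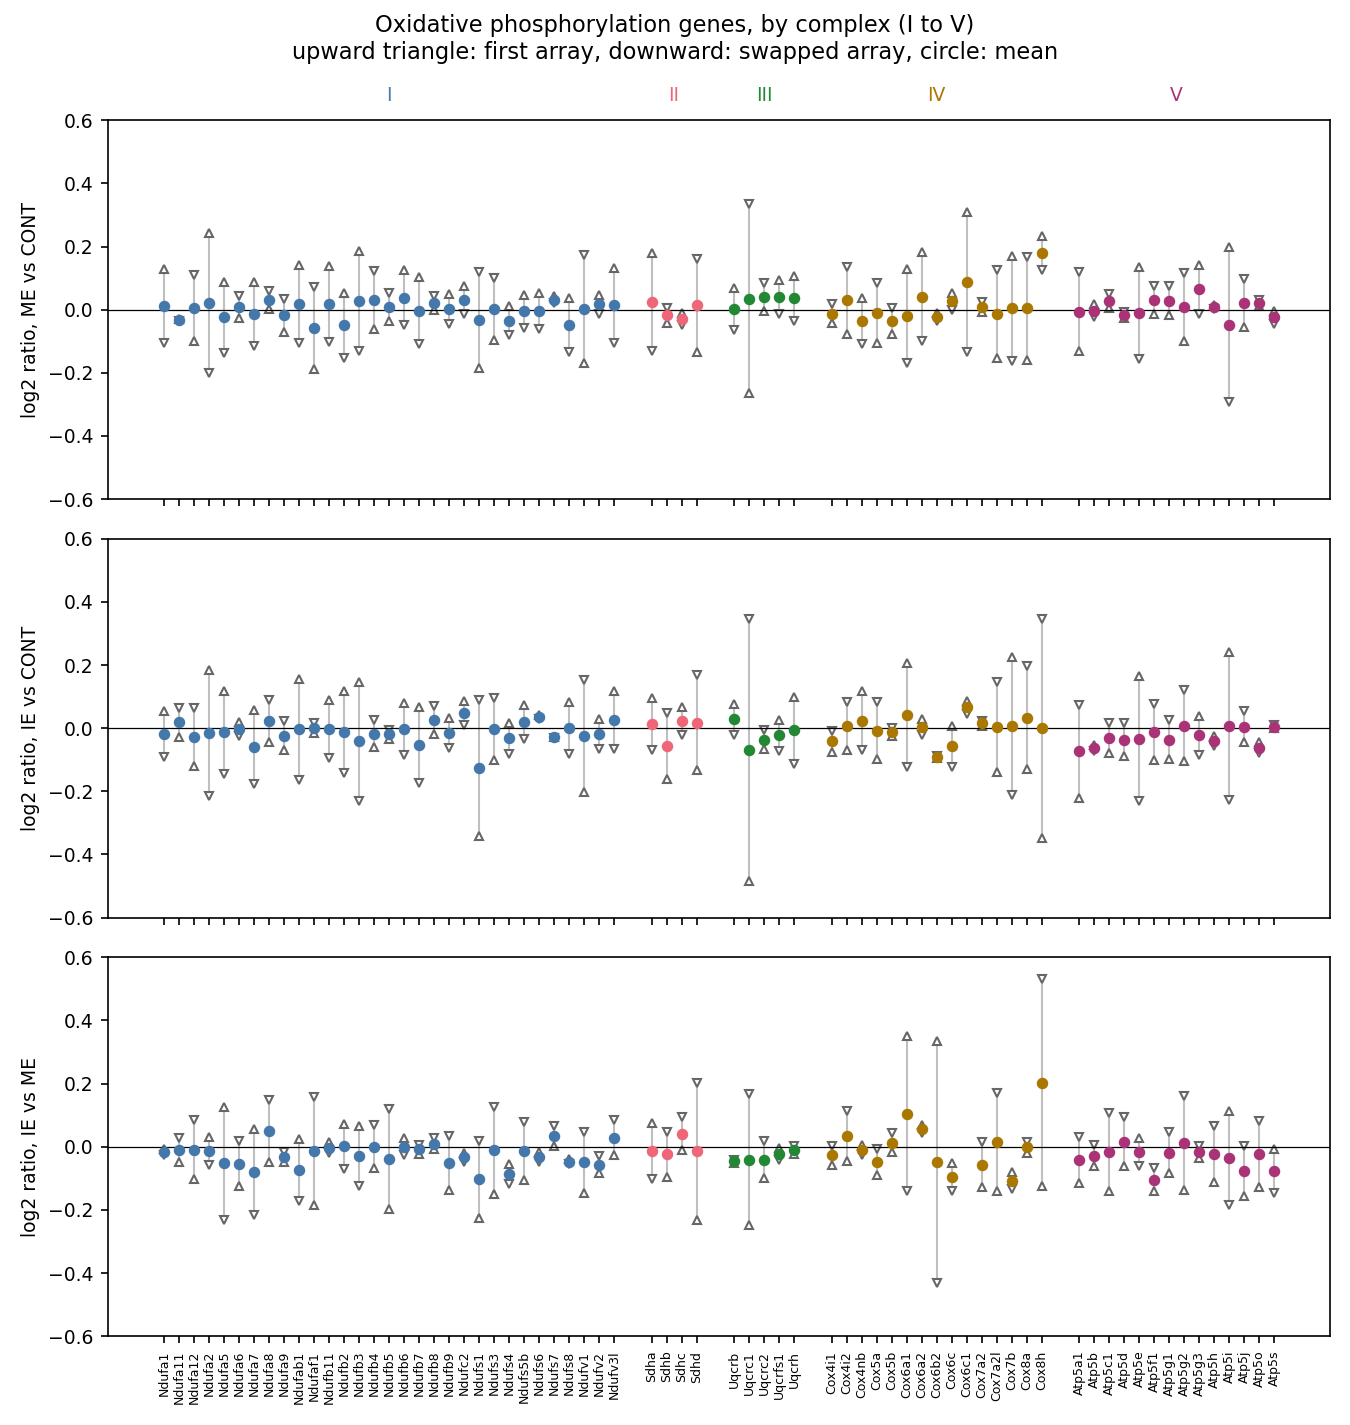
Log2 ratio of each member gene but 1 of complex I (horizontal axis, grouped by complexes I to V) in the 3 comparisons, with upward triangles for the first array, downward triangles for the swapped array and coloured circles for their mean. The circles stay between -0.13 and 0.20, and the triangles of most genes lie on opposite sides of 0.

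The median absolute mean ratio of a member probe was 0.022 in ME vs CONT, 0.022 in IE vs CONT and 0.030 in IE vs ME. Over all probes well above background it was 0.041, 0.045 and 0.048, and over the brightest 30% of them it was 0.024, 0.027 and 0.028, close to the values of the members. As a measure of precision, the IE vs CONT ratio less the ME vs CONT ratio less the IE vs ME ratio would be 0 in arrays without error. Over the 77 member probes this difference had a median absolute size of 0.041 and stayed under 0.091 in 9 of 10 of them, against 0.058 and 0.20 over 24719 probes. It combines 3 ratios and is by construction wider than a single one. The difference was not computed over the brightest 30% of probes alone, where most members lay.

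**Figure D2:**
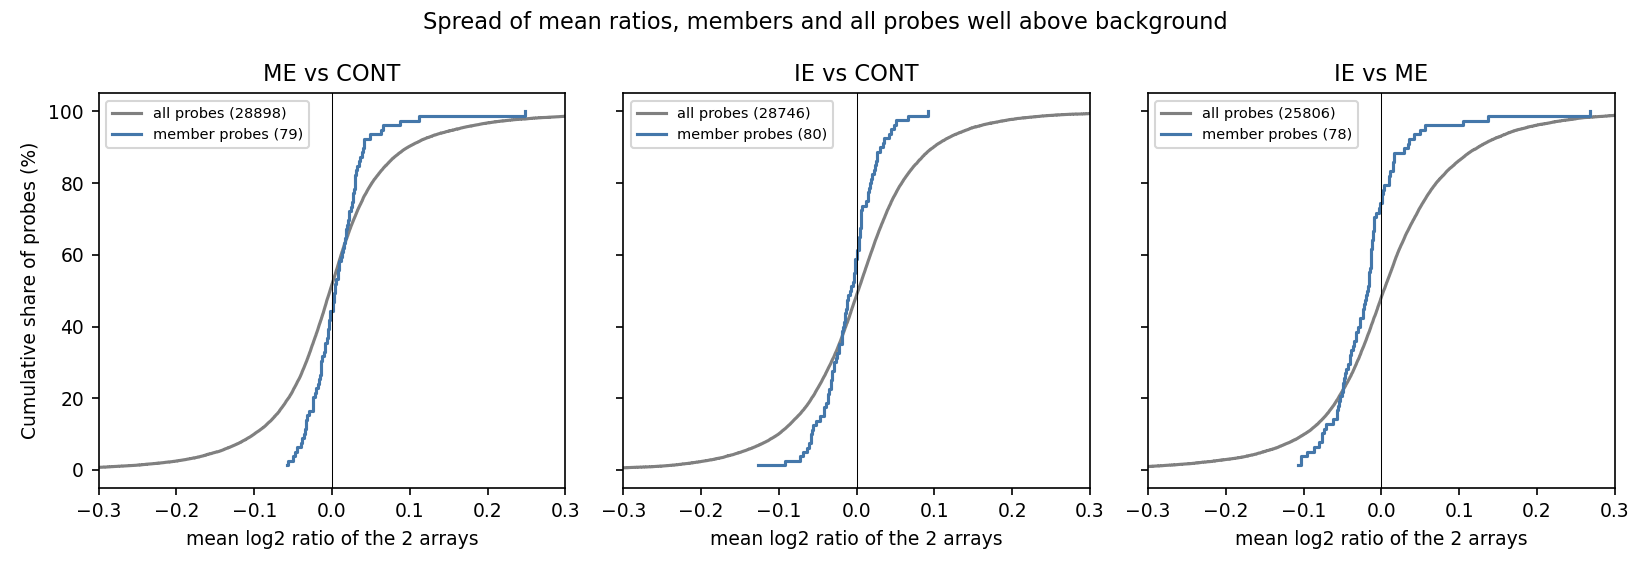
Cumulative share of probes (%) against the mean log2 ratio of the 2 arrays for member probes (blue) and all probes well above background (grey). The member curves are steeper around 0, with median absolute ratios of 0.022, 0.022 and 0.030 against 0.041, 0.045 and 0.048.

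Complex I, which takes electrons from NADH, had medians over its 32 genes of 0.045 and -0.042 on the arrays of ME vs CONT, 0.030 and -0.033 on those of IE vs CONT, and -0.043 and 0.012 on those of IE vs ME. The medians of the gene means were 0.0040, -0.013 and -0.015. The widest mean, singled out after the values were seen, was that of Ndufs1, the largest iron-sulfur subunit of the electron-input arm. Its ratio was -0.34 and 0.088 in IE vs CONT (-0.13 ± 0.30), -0.18 and 0.12 in ME vs CONT (-0.032 ± 0.21) and -0.23 and 0.018 in IE vs ME (-0.10 ± 0.17). The first array of each pair was low and the second was above 0, so the arrays disagreed in sign each time. Ndufs7, an iron-sulfur subunit near the ubiquinone site, kept 1 sign within each pair, at 0.043 and 0.021 in ME vs CONT, -0.027 and -0.030 in IE vs CONT and 0.0034 and 0.066 in IE vs ME. The direct IE vs ME ratio was above 0 although the ratios against CONT put IE below ME, and the 3 comparisons disagreed by -0.096. Ndufs4, a subunit needed for full activity of the complex, had its lowest values in IE vs ME (-0.056 and -0.12, mean -0.086 ± 0.043), with means of -0.035 and -0.032 in the comparisons with CONT.

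Further complex I genes were small in ratio. Ndufa8, an accessory subunit, gave 0.0014 and 0.057 in ME vs CONT, and Ndufs6, which carries a zinc site, gave 0.041 and 0.030 in IE vs CONT. Ndufa11, a membrane-arm subunit, gave -0.031 and -0.037 in ME vs CONT. Ndufa1, another membrane-arm subunit, gave -0.0056 and -0.025 in IE vs ME. Each of these kept its sign on both arrays of that pair, and the larger of its array values was no further than 0.057 from 0. RefSeq lists pseudogenes of Ndufs6, Uqcrb and Cox6c, with which their probes may share signal.

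Complex II, which is also the succinate dehydrogenase of the citric acid cycle, is made of Sdha (the flavoprotein that oxidizes succinate), Sdhb (the iron-sulfur subunit), and Sdhc and Sdhd (the membrane anchors). Sdha gave 0.18 and -0.13 in ME vs CONT, 0.10 and -0.068 in IE vs CONT and 0.074 and -0.10 in IE vs ME, with means of 0.024, 0.014 and -0.014. Sdhb gave means of -0.018 ± 0.035, -0.056 ± 0.15 and -0.024 ± 0.10. Sdhc gave -0.0098 and -0.050 in ME vs CONT, 0.067 and -0.022 in IE vs CONT and -0.012 and 0.10 in IE vs ME. Sdhd gave -0.13 and 0.16, -0.13 and 0.17, and -0.23 and 0.20. Only Sdhc in ME vs CONT had both arrays of a pair on 1 side of 0 among these 4 genes. The medians of the complex were -0.0024, 0.016 and -0.014.

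Complex III, the cytochrome bc1 complex, was represented by Uqcrc1 and Uqcrc2 (the core proteins), Uqcrfs1 (the Rieske iron-sulfur protein), Uqcrb and Uqcrh. In ME vs CONT all 5 gene means were above 0, from 0.00086 to 0.041, with a median of 0.036. In IE vs CONT 4 of 5 means were below 0 (median -0.022), and in IE vs ME 5 of 5 were (median -0.040). The comparisons with CONT share the CONT pool, and ME and IE each stand in a further comparison, so these counts are not independent of each other. Of all probes, near equal numbers lay above and below 0 in each comparison, as given above. By array, the complex medians were 0.068 and -0.012 in ME vs CONT, 0.027 and -0.021 in IE vs CONT, and -0.051 and 0.0030 in IE vs ME, so the arrays of each pair differed in sign. Uqcrfs1 gave 0.094 and -0.012, 0.027 and -0.072, and -0.0024 and -0.041 in the same order. Uqcrb was measured by 3 probes, whose means agreed within 0.030, 0.043 and 0.018. Their gene mean was 0.00086, 0.028 and -0.046, and IE vs ME was its only comparison with both array values on 1 side of 0 (-0.051 and -0.042).

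Complex IV passes electrons to oxygen, and several of its nuclear subunits come in forms named for the tissue in which they dominate. Cox4i1, the common form of subunit IV, gave -0.043 and 0.016 in ME vs CONT, -0.074 and -0.0089 in IE vs CONT and -0.059 and 0.0038 in IE vs ME. Cox4i2, its lung and hypoxia-related form, gave means of 0.030 ± 0.15, 0.0060 ± 0.11 and 0.034 ± 0.11. Cox6a1, the liver form of subunit VIa, gave 0.13 and -0.17, 0.21 and -0.12, and 0.35 and -0.14, so the Cy5 channel was brighter every time. Cox6a2, its heart form, gave 0.18 and -0.10 in ME vs CONT, 0.030 and -0.021 in IE vs CONT and 0.068 and 0.044 in IE vs ME. Cox7a2 gave 0.0079 and 0.023 in IE vs CONT, and its other means were 0.0080 and -0.057. Cox8a gave means of 0.0040, 0.034 and -0.0018.

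Cox6b2 and Cox8h, forms named for testis and heart, gave the widest gene ratios of complex IV on an array among probes well above background. Cox6b2, the testis form of subunit VIb, gave -0.011 and -0.037 in ME vs CONT and -0.10 and -0.088 in IE vs CONT (-0.092 ± 0.0049). On the other slide, in IE vs ME, it gave 0.33 and -0.43 (-0.049 ± 0.54), and its processed signals were between 39 and 97 units on all 6 arrays. Cox8h had 3 probes. The probe that was well above background on all 6 arrays gave 0.059 and 0.17 in ME vs CONT, 0.057 and 0.13 in IE vs CONT and 0.40 and -0.12 in IE vs ME, at 76 to 100 units. The second probe gave -1.01 and 0.89 in IE vs CONT and -0.65 and 1.18 in IE vs ME, at 11 to 42 units. The third gave 0.41 and 0.088 in ME vs CONT and -0.089 and 0.023 in IE vs CONT. Averaged over the usable probes, Cox8h had the highest gene means among members, at 0.18 ± 0.076 in ME vs CONT, and at 0.20 ± 0.46 when IE was set against ME. Each averaged the first probe with 1 of the others, which were not well above background on every array.

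Further subunits of complex IV were low on both arrays of IE vs ME. Cox7b gave -0.080 and -0.14 (-0.11 ± 0.039) and Cox6c gave -0.051 and -0.14 (-0.10 ± 0.064). Against CONT, Cox7b gave 0.17 and -0.16 in ME vs CONT and 0.23 and -0.21 in IE vs CONT, with means of 0.0039 and 0.0070. The 3 comparisons of Cox7b thus disagreed by 0.11, as much as its IE vs ME ratio. Cox6c gave 0.053 and 0.00038 in ME vs CONT and 0.0071 and -0.12 in IE vs CONT. Cox5b, on 2 probes, gave -0.077 and 0.0046 in ME vs CONT. Cox6c1 gave 0.31 and -0.13 in ME vs CONT and 0.087 and 0.045 in IE vs CONT, and in IE vs ME it was not well above background. The medians of complex IV were 0.0039, 0.0044 and -0.0062.

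Complex V had medians of 0.00090 and 0.016 on the arrays of ME vs CONT, -0.049 and 0.012 on those of IE vs CONT and -0.098 and 0.017 on those of IE vs ME. The median of its 14 gene means was 0.0080 in ME vs CONT, -0.032 in IE vs CONT, with 10 below 0, and -0.023 in IE vs ME, with 12 below 0. The counts over all probes are those given above, near equal on both sides of 0. Atp5b, the catalytic beta subunit, gave 0.017 and -0.025 in ME vs CONT, -0.054 and -0.073 in IE vs CONT (-0.063 ± 0.013) and -0.061 and 0.0052 in IE vs ME. Atp5o, which links the catalytic head to the peripheral stalk, gave 0.012 and 0.031, -0.044 and -0.079, and -0.13 and 0.081. Atp5c1, the gamma subunit of the rotor, gave 0.0051 and 0.050 in ME vs CONT and means of -0.032 and -0.017 in the others. Atp5f1, a peripheral stalk subunit, gave -0.14 and -0.068 in IE vs ME (-0.10 ± 0.050), with means of 0.030 and -0.012 against CONT. The genes of the membrane c ring, which encode the same mature protein, gave means in the same order of 0.028, -0.036 and -0.018 (Atp5g1), 0.0083, 0.0086 and 0.012 (Atp5g2) and 0.065, -0.022 and -0.016 (Atp5g3). Their transcripts are alike in the coding part, and signal shared among the probes cannot be told apart here.

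Few members kept 1 sign on both arrays of a dye swap. In ME vs CONT, 9 of 79 member probes (11.4%) were above 0 on both arrays, against 13.6% of 28898 probes, and 7 (8.86%) were below 0 on both, against 15%. In IE vs CONT, 6 of 80 (7.50%) were above on both, against 14.6% of 28746, and 9 (11.2%) below, against 13.6%. In IE vs ME, 2 of 78 (2.56%) were above on both, against 14.5% of 25806, and 12 (15.4%) below, against 12.1%. Another normalization moved some of these counts. With normexp and loess, 4 were above 0 in ME vs CONT and 6 in IE vs ME. With loess on raw signals, 4 were above in IE vs ME and 4 below in ME vs CONT, and with each array centred on its median 1 was above in IE vs ME. As first counted, the 2 above 0 were Cox6a2 and Ndufs7. The 12 below were the probes of Cox7b, Cox5a, Ndufv2, Atp5f1, Atp5s, Ndufs4, Uqcrfs1, Ndufs6, Ndufa1 and Cox6c, 1 of 2 for Ndufs8 and 1 of 3 for Uqcrb, which belong to complexes I, III, IV and V. Within the brightest 30%, 7 of 70 members were above and 5 (7.14%) below in ME vs CONT, against 10.01% and 11.1% of 8670 probes. For IE vs CONT, 3 of 70 (4.29%) were above and 8 (11.4%) below, against 12.1% and 10.9% of 8624 probes. For IE vs ME, 1 of 68 (1.47%) was above and 10 (14.7%) below, against 13.0% and 12.1% of 7742 probes. On the first array of IE vs ME the median of every complex was below 0, and on the second it was above 0, at 0.0030 to 0.072.

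**Figure D3:**
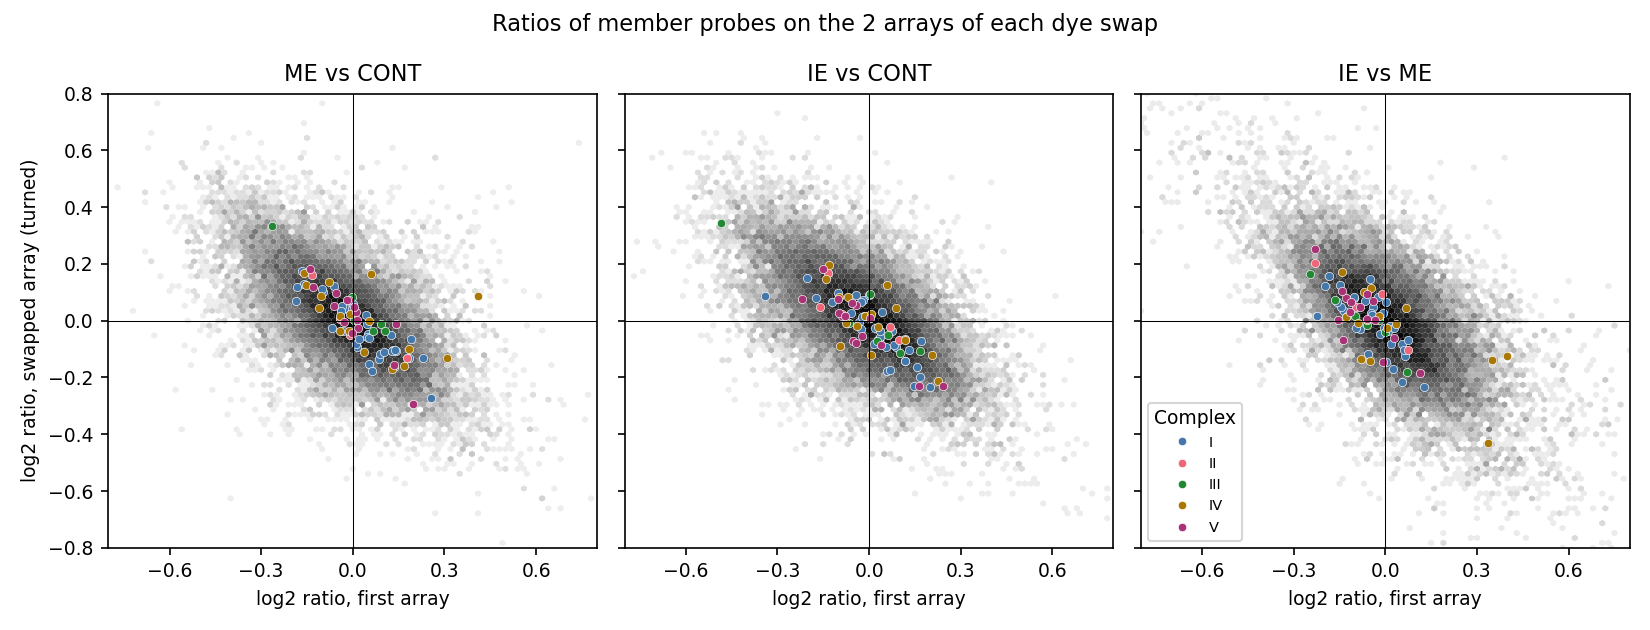
Log2 ratio on the swapped array against that on the first array for member probes (coloured by complex) over all probes well above background (grey, darker where more probes fall), in the 3 comparisons. Most members lie in the upper left or lower right, where the arrays differ in sign (63 of 79, 65 of 80 and 64 of 78), and 1 probe of Cox8h lies outside the axes in IE vs CONT and in IE vs ME.

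The arrays of a pair had opposite signs after turning for 63 of 79 (79.7%), 65 of 80 (81.2%) and 64 of 78 (82.1%) member probes, against 71.4%, 71.8% and 73.3% of all probes. A difference between pools keeps its sign after turning, and a probe that favours a dye does not. Before turning, the same dye was brighter on all 6 arrays for 38 of 77 member probes (49.4%), against 34.6% of 24719 probes. This share was not counted among bright probes alone either, so brightness and a trait of these genes cannot be told apart here. Cy3 was the brighter dye for 20 of them and Cy5 for 18. The largest was at Uqcrc1, where log2 Cy5/Cy3 ran from -0.48 to -0.17 over the 6 arrays (mean -0.31). Next were a probe of Atp5g2 on the Cy3 side (-0.25 to -0.14) and, on the Cy5 side, Atp5i (0.11 to 0.29) and Cox6a1 (0.12 to 0.35). The turned ratios of Uqcrc1 were -0.26 and 0.33 in ME vs CONT, -0.48 and 0.34 in IE vs CONT and -0.25 and 0.17 in IE vs ME, and their means were 0.035, -0.069 and -0.041.

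**Figure D4:**
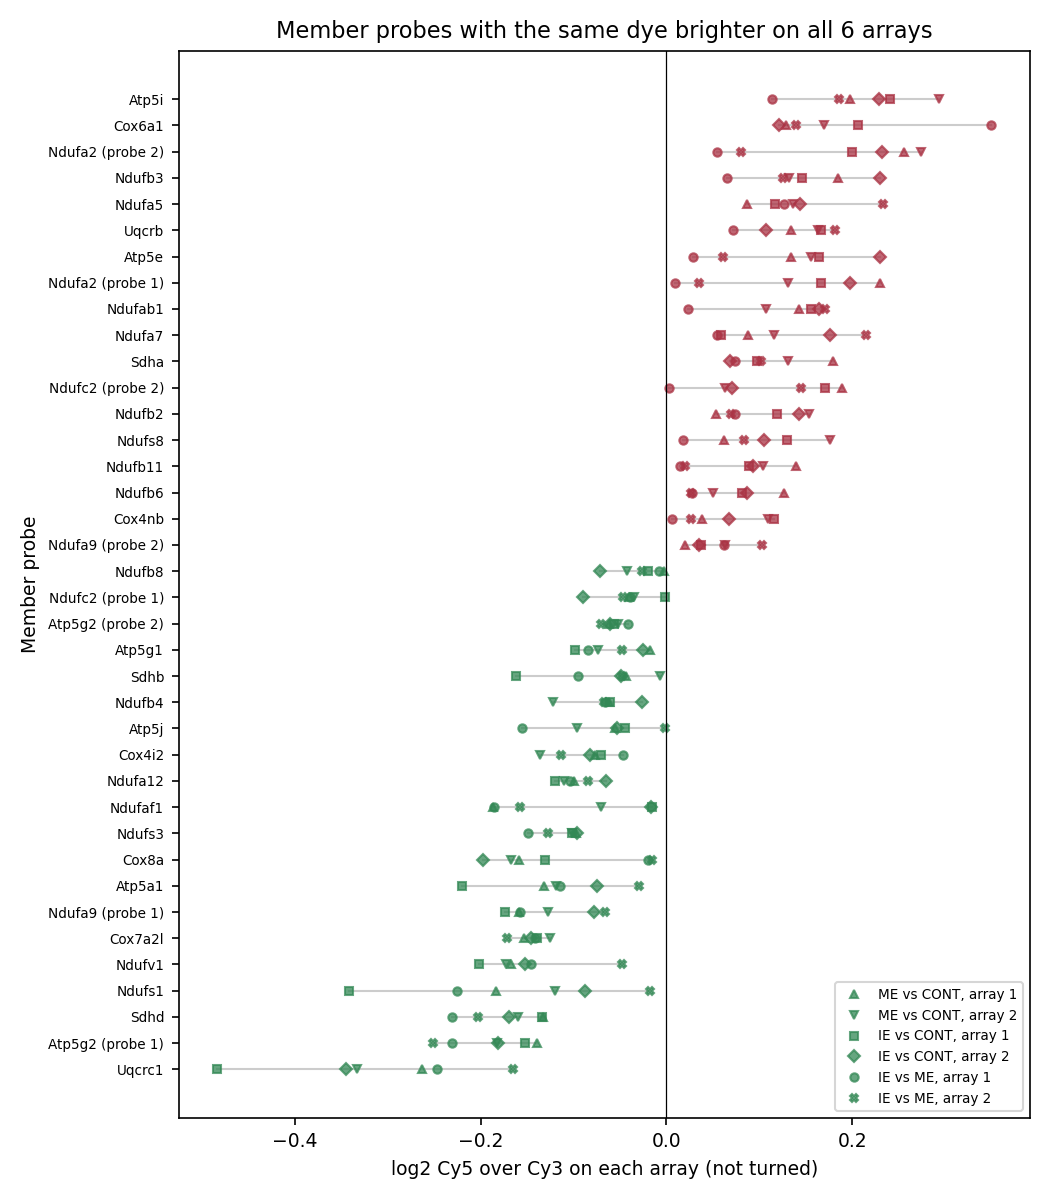
Log2 Cy5 over Cy3, not turned, on each of the 6 arrays (symbols) for the 38 member probes with the same dye brighter throughout, sorted by mean, with Cy5-bright probes in red and Cy3-bright probes in green. Uqcrc1 stands lowest at -0.48 to -0.17, and the probes of Ndufa9 and of Ndufc2 appear on both sides of 0.

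The side went with the probe and not with the gene in Ndufa9 and Ndufc2, both subunits of complex I. Of the 2 probes of Ndufa9, one was brighter in Cy3 on all 6 arrays (mean log2 Cy5/Cy3 of -0.13 ± 0.045, SD over the 6 arrays) and the other in Cy5 (0.054 ± 0.029). For Ndufc2 the means were -0.042 ± 0.029 and 0.11 ± 0.073. The averages of the dye swaps of both probes nonetheless lay 0.0055 to 0.075 apart in the 3 comparisons. To show how such probes differ, the first 30 of the 60 bases of the probes with the 2 highest and 2 lowest dye ratios and of the 2 genes with opposed probes are given, 5′ to 3′ as in the array files, with no part marked.
Uqcrc1 (Cy3 side): agagtattggcgcccatcttaatgcctaca
Atp5g2, first probe (Cy3 side): ctgctacagttggggtggccggttctggag
Atp5i (Cy5 side): atgtcagcattttcaagtgaggcggcagtg
Cox6a1 (Cy5 side): accacgaaagcccattggatgctcagctca
Ndufa9, first probe (Cy3 side): aaacaaccagtatatgttgcagatgtttcc
Ndufa9, second probe (Cy5 side): tgctctgaactcacacacactgagtgtttt
Ndufc2, first probe (Cy3 side): cctcaccacaacctgaatattttctgaatt
Ndufc2, second probe (Cy5 side): tgtttgggtatatgaaattacatccagaag
In the rn3 build of the array files these probes lie at chr8:113980899-113980958 (Uqcrc1), chr7:141491631-141491690 (Atp5g2), chr14:1868395-1868454 (Atp5i), chr12:42396413-42396472 (Cox6a1), chr4:163466458-163468389 and chr4:163453428-163453487 (Ndufa9), and chr1:154720415-154720474 and chr1:154719694-154720357 (Ndufc2). The intervals longer than 60 bases are as the files give them, and whether a probe lies in coding sequence or UTR was not determined. Across the 77 member probes, the count of T in the probe had a Pearson's r of 0.12 and a Spearman's rho of 0.11 with the mean log2 Cy5/Cy3, and that of C had -0.15 and -0.16. Across 24719 probes the values were 0.31 and 0.33 for T and -0.22 and -0.24 for C. These are across probes of the same 6 arrays, which share labeling and dye normalization and are not independent replicates.

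Lists of genes that work beside the complexes had medians near 0. Over all probes, 0.122%, 0.0293% and 0.0731% were called, so counts of 0 called say little about lists this short. Of 17 genes of the citric acid cycle and pyruvate dehydrogenase, which supply NADH and succinate, 0 of 24 probes were called in any comparison, and the medians were 0.011 in ME vs CONT, -0.025 in IE vs CONT and -0.023 in IE vs ME. In ME vs CONT 5 of these 24 probes were above 0 on both arrays and 0 below (13.6% and 15% of all probes), in IE vs CONT 0 were above and 6 below (14.6% and 13.6%), and in IE vs ME 1 was above and 8 below (14.5% and 12.1%). In the same order, the counts were 1 and 3, 1 and 4, and 2 and 0 for the 15 probes of the assembly factors below, 3 and 4, 0 and 3, and 3 and 3 for the 20 probes at the inner membrane, and 1 and 0 of 16, 1 and 6 of 16, and 3 and 3 of 18 for the biogenesis regulators. Ogdh, of the 2-oxoglutarate dehydrogenase complex, gave -0.32 and 0.11 in IE vs CONT and 0.062 and 0.18 in IE vs ME. For 12 assembly factors outside the name rule the medians were -0.017, -0.0026 and -0.012, with 0 of 15 probes called. The widest was Cox15, needed to make heme a for complex IV, with -0.77 and 0.12 in ME vs CONT. For 12 genes of cytochrome c, cytochrome c1, carriers and regulators of the inner membrane they were 0.016, -0.016 and -0.030, with 0 of 20 probes called. The widest of these was Ucp2, an uncoupling protein, with -0.28 and -0.020 in ME vs CONT and 0.17 and 0.26 in IE vs ME. For the regulators of mitochondrial biogenesis (14 genes on the array) the medians were -0.0030, -0.00042 and 0.025, with 0 of 18 probes called. Ppargc1a, which encodes PGC-1alpha, gave -0.15 and 0.057 in ME vs CONT, -0.014 and -0.38 in IE vs CONT and 0.15 and -0.067 in IE vs ME. Tfam, the mitochondrial transcription factor, gave means of -0.0048, -0.029 and -0.016. Nrf1, which encodes NRF-1, had the highest mean of these regulators in IE vs ME, with 0.16 and 0.21, and no usable value in the other comparisons.

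**Figure D5:**
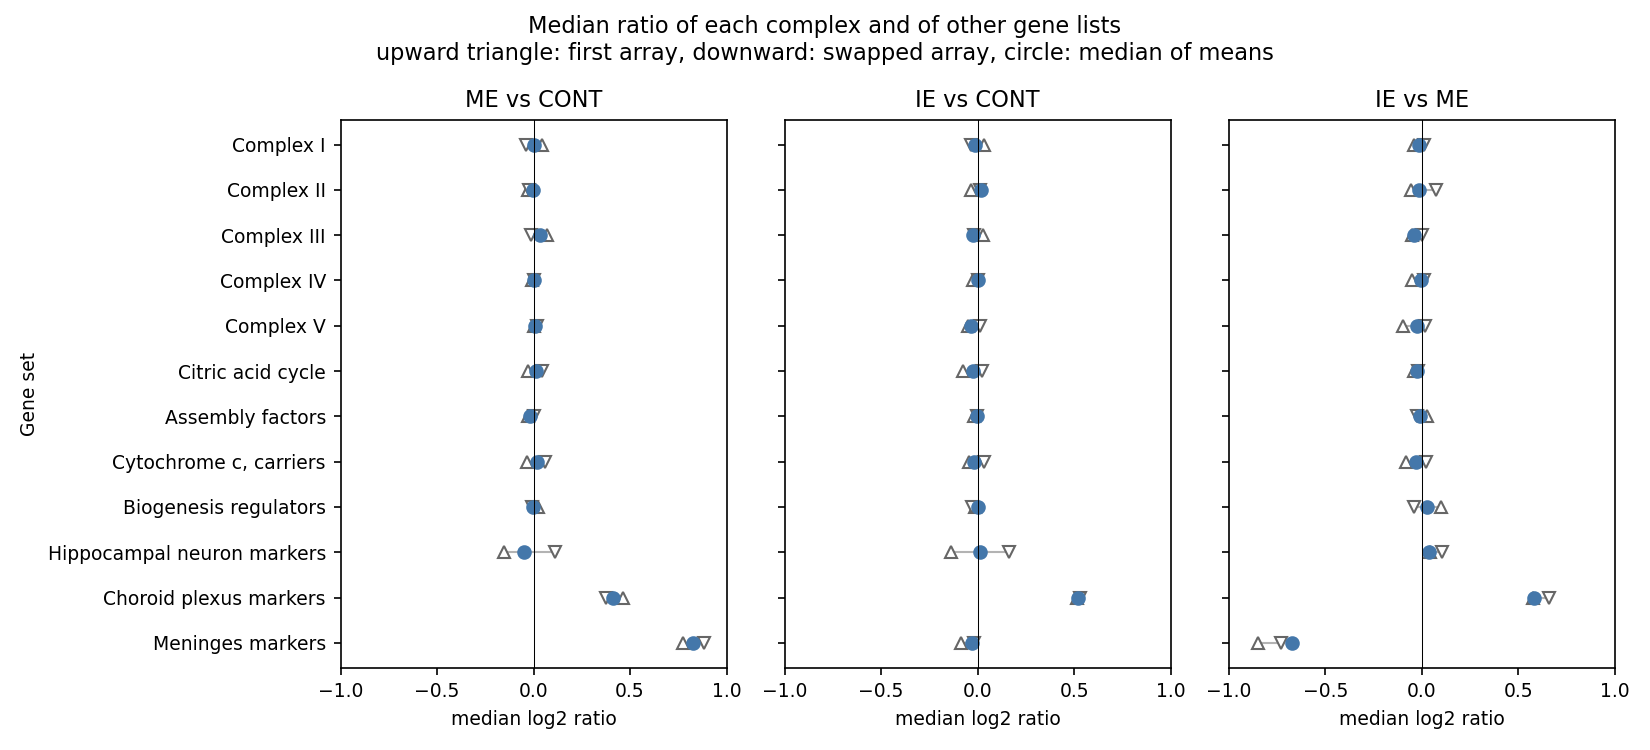
Median log2 ratio of each complex, of the other mitochondrial lists and of 3 marker lists (vertical axis) in the 3 comparisons, with upward triangles for the first array, downward triangles for the swapped array and circles for the median of the gene means. The complexes stay within 0.10 of 0 on every array, while the array medians reach 0.66 for the choroid plexus markers in IE vs ME and 0.88 in ME vs CONT and -0.85 in IE vs ME for the meninges markers.

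Markers of tissues outside the hippocampus differed among the pools. The summed processed signal of the 11 choroid plexus markers was 730 to 1106 units in CONT, 1248 to 1560 in ME and 4036 to 4844 in IE, and 5 of the 11 genes were well above background in every reading. Over the probes that passed the background test in each pair, their median ratio was 0.41 in ME vs CONT, 0.52 in IE vs CONT and 0.58 in IE vs ME, and over the probes of the 5 genes that passed it on all 6 arrays it was 0.13, 0.89 and 0.74. The dim gene Kcnj13 accounts for the first difference, with a mean of 1.73 in ME vs CONT. Among the 5 genes, Ttr, the defining transthyretin, had means of 0.91, 2.51 and 1.92. The 9 meninges markers were well above background throughout, with sums of 6575 to 7333 units in CONT, 8722 to 13342 in ME and 4775 to 6917 in IE, and median ratios of 0.83, -0.030 and -0.67. Of 3 cerebellum markers 2 were well above background throughout, with medians of 0.42, -0.0012 and -0.47, and Pcp2, of Purkinje cells, gave 0.41 and 0.21 in ME vs CONT and -0.59 and -0.53 in IE vs ME. Car8, the other, gave 0.27 and 0.81 in ME vs CONT, and in IE vs ME its arrays disagreed in sign (-1.06 and 0.30). Of 2 thalamus markers 1 was, Prkcd, with 0.46 and 0.27 in ME vs CONT, 0.19 and 0.046 in IE vs CONT and -0.14 and -0.43 in IE vs ME. Of the hippocampal neuron markers, 6 were on the array, 5 of them were well above background throughout, and the medians of these 5 were -0.047, 0.0029 and 0.035. The dim one was Prox1, the marker of dentate granule cells. Dsp, among the 5, gave -0.13 and -0.13 in ME vs CONT, 0.20 and 0.13 in IE vs CONT and 0.30 and 0.35 in IE vs ME. Of the usable probes of the list, 0 of 8 were above 0 on both arrays and 2 below in ME vs CONT. The counts were 0 and 0 of 8 in IE vs CONT, and 4 and 0 of 7 in IE vs ME (14.5% and 12.1% of all probes). The part of these tissues in the member ratios was not tested. Processed signals are compared here only as ranges, because the IE vs ME arrays were processed separately from the others. CONT was not on those arrays, so its ranges come from the 4 arrays against CONT alone. The ranges of ME and IE include both kinds of array and are not matched to those of CONT.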

How the data were processed

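Members and gene lists were chosen with earlier results of these data known. In the labels the arrays of each swap carry different pool numbers, whereas the study's methods, followed here, describe 1 pool per group. The records give 24 or 36 h between the last run and tissue collection, and the methods give another interval. The authors used Agilent Feature Extraction for spot signals. Its version per the file headers was 9.5.3.1 on the 4 arrays against CONT and 11.0.1.1 on the 2 arrays of IE vs ME. The deposited log10 ratio of Cy5 over Cy3 is background-subtracted and LOWESS-normalized, the deposited p-value comes from the error model of the software, and the deposited intensity of each spot is given raw and processed. The value table of the authors holds the log10 ratio of the processed intensity, with the sign turned on second arrays. It matched the signals within 0.001 for 100% of spots per array, and its column medians were between -0.0100 and 0.0087.

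Here, control features and outlier spots were left out, spots of a probe were averaged, and ratios were turned to log2 (Python 3.11.15, pandas 2.3.3). Gene names on the IE vs ME arrays were taken from the other arrays by probe name. All 71 member names were matched to RefSeq GRCr8 by accession, symbol or synonym, and other lists by name or accession. Named genes were the 4 highest and 4 lowest per comparison among member probes well above background with 1 sign on both arrays, the Sdh genes, the tissue forms and c subunits, called genes, and genes whose probes differed by over 0.5. Other genes were named after their values were seen, for a wide ratio, a dye effect or promoter words. Alternatives used limma 3.58.1 on R 4.3.3 for normexp (offset 50) and loess. The ratio limits of the call rule were tested on simulated data. Every simulated p was set to pass, so the p limit was not tested. Two-colour ratios have no read depth, and the number of arrays limits the precision. The share of spots that passed the background test for both dyes was 66.5% to 74.4% per array. Cox6b1 and Cox7a1, also in the rule, were not found by name. The values of 1 named complex I gene are not reported here, and it stays in the counts and medians.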

Additional observations from a re-analysis of the deposited data

Results flagged for a closer look

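Atp5h, Atp5o and Ndufs7 were above 0 on both arrays of ME vs CONT and below 0 on both arrays of IE vs CONT, and Atp5s had the opposite signs. Atp5h, a peripheral stalk subunit of complex V, gave log2 ratios of 0.013 and 0.0019 in ME vs CONT and -0.023 and -0.055 in IE vs CONT. Atp5o, of the same stalk, gave 0.012 and 0.031, then -0.044 and -0.079. Ndufs7, of complex I, gave 0.043 and 0.021, then -0.027 and -0.030. Atp5s, a factor outside the complex itself, gave -0.0033 and -0.044, then 0.0015 and 0.0086. The difference between intensities was not tested, since each group is 1 pool, and both comparisons use the same CONT pool. Of all probes, 13.6% were above and 15% below 0 on both arrays in ME vs CONT, and 14.6% and 13.6% in IE vs CONT. The share of all probes with opposite signs in both comparisons was not counted, so the number of flagged genes has no background here. Most of the values against CONT were smaller in size than 0.041, the median absolute disagreement among the comparisons over member probes. That measure combines several ratios and is wider than a single one. The largest value was -0.079, of Atp5o in IE vs CONT. On the arrays that compared IE with ME directly, Atp5h gave -0.11 and 0.067, Atp5o -0.13 and 0.081, Ndufs7 0.0034 and 0.066, and Atp5s -0.0078 and -0.15.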

How the results depend on the processing

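No paired analysis was possible because every swap holds the same RNA on both arrays and a group is 1 pool. With another setting, 37 of 39 medians over all members and 183 of 195 medians of complexes moved by less than the SD between the arrays, and 36 and 169 kept their sign. For named genes, 1108 of 1138 values moved by less than that SD and 1026 kept their sign. Part of the count for genes was fixed in advance, since leaving out 1 array always moves a gene's mean by less than that SD. Keeping outlier spots changed no member, because no member spot was marked as one. The SD also contains the dye effect of each probe, so a move smaller than it is a weak sign of stability. With 1 array of each pair left out, medians over all members ran from -0.012 to 0.012 in ME vs CONT, from -0.015 to -0.0073 in IE vs CONT and from -0.049 to 0.014 in IE vs ME. For complex I they ran from -0.042 to 0.045, from -0.033 to 0.030 and from -0.043 to 0.012 in the same order, for complex II from -0.027 to -0.022, from -0.034 to 0.013 and from -0.053 to 0.072, for complex III from -0.012 to 0.068, from -0.021 to 0.027 and from -0.051 to 0.0030, for complex IV from -0.0076 to 0.0046, from -0.026 to 0.00026 and from -0.049 to 0.0091, and for complex V from 0.00090 to 0.016, from -0.049 to 0.012 and from -0.098 to 0.017. In the joint fit of all 6 arrays the median over members in IE vs CONT was -0.020. With normexp and loess the ME vs CONT medians were -0.0079 for complex II, -0.013 for complex IV and -0.0050 for complex V. Member probes above 0 on both arrays numbered 4 in ME vs CONT and 6 in IE vs ME with normexp and loess, and in IE vs ME 4 with loess on raw signals and 1 with each array centred on its median. With loess on raw signals, 4 probes were below 0 on both arrays in ME vs CONT. By the mean fold of a pair, 1 member probe, that of Cox6b, was past 1.5-fold up in ME vs CONT, and it was not well above background. The causes were not tested. Dim probes (Cox6b, Cox6b2, Cox6c1 and Cox8h) have ratios limited by signal over background.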
